A study of Mus musculus with 8 samples.

Results

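The genes described here are 37 lysosomal genes of the mouse, among 22026 genes listed by name. They comprise Cd68, 3 other membrane proteins of the lysosome, 10 cathepsins, 10 glycan-degrading enzymes (glycosidases with the sulfatase Sgsh), 5 genes of lipid handling, 3 other luminal proteins, a calcium channel with 2 subunits of the proton pump, and the pair Tfeb and Sqstm1. They were chosen by gene symbol, as a list drawn up to ask whether Cd68 moves with other lysosomal genes, once Cd68 was known to be higher in 4T1 cells carrying the Gpr56 vector. No p-value is therefore printed for the vector comparison in 4T1, and its counts of calls stand beside those over all genes as a description. Reads were found for 36 of the 37 genes, and 35 passed the filter on low counts. Ctsf had 0 reads in all 8 libraries, which by a limit of 3 reads allows up to 0.116 to 0.285 CPM (counts scaled to library size) depending on the library, and Ctss had 2 reads in all.

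The 8 bulk RNA sequencing libraries came from 4T1 and TS/A, which are both mammary carcinoma lines of BALB/c mice, with 2 libraries for each line and vector. Per the sample characteristics, cells of each line carried either an empty virus vector or one expressing Gpr56, whose gene symbol is now Adgrg1, a receptor of the adhesion class coupled to G proteins and known to bind collagen. The design text describes culture with type III collagen for 72 h, in RPMI with 10% FCS, before RNA extraction. The titles instead set Emp_Control against Emp_ColIII for the same groups, so by the labels alone the vector and the collagen culture of each group cannot be told apart. The sources used here do not give the promoter of the vector or the number of clones or cultures behind each group. Depth was 10510569 to 25959142 reads per library.

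Some facts of the libraries bear on every result. Adgrg1 stood at 2.53 and 2.77 CPM with the empty vector and at 90.5 and 100.1 CPM with the Gpr56 vector in 4T1. In TS/A it stood at 34.8 and 16.3 CPM in the libraries labelled with the empty vector and at 22.6 and 13.3 CPM in those labelled with the Gpr56 vector, so the transduced gene did not part the labels there. Libraries within a group were more spread in TS/A, the biological coefficient of variation being 19.6% in TS/A alone and 5.47% in 4T1 alone. That value pools both vector labels of a line. TS/A results are given with and without each of the 2 TS/A libraries labelled with the empty vector. Markers of epithelial cells also separated the lines. All 8 of 8 such markers were lower in TS/A (median log2 difference -10.71), where edgeR called 32.4% of all genes lower. Epcam, Cdh1, Krt8, Krt7, Cldn7 and Esrp1 had 0 to 14 reads in each TS/A library and passed the filter on low counts through 4T1. The size of that median is thus set near the limit of counting, and the share over all genes is no like comparison for them. Cdh1, the epithelial cadherin, was at 267 to 428 CPM in 4T1 and at 0 to 0.190 CPM in TS/A. The keratin genes Krt18 (446 to 605 CPM in 4T1, 148 to 204 CPM in TS/A) and Krt19 (67.2 to 151 against 30.6 to 55.7 CPM) differed less. In bulk RNA, fewer cells of a kind and less RNA per cell cannot be told apart.

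Lysosomes are acidic organelles in which hydrolases break down proteins, glycans, lipids and nucleic acids delivered by endocytosis and autophagy. Their membrane is lined by heavily glycosylated proteins such as LAMP1 and LAMP2, a vacuolar proton pump keeps the lumen acidic, and many lysosomal genes are driven by the transcription factor TFEB through a CACGTG-containing element near their start sites. CD68 is a LAMP family protein best known as a macrophage marker, and secreted cathepsins have long been studied in breast cancer for their part in matrix breakdown and invasion.

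The starts of these genes are shown first, since TFEB is itself a member and the element is the one regulatory sequence known to be shared by many lysosomal genes. RefSeq start sites on GRCm38.p6 were found for 32 of the 37 genes, each with 250 bases before and 50 after the start. The letters CACGTG, which read the same on both strands, occurred in any such window for 12 of 32 genes (37.5%), against 8.09% of 27025 mouse genes. Some genes, such as Ctsa, Psap and Tfeb, have several start sites, and a gene was counted if any of its windows held the letters. The 27025 genes were not limited to those with reads here. The longer form TCACGTGA, which contains CACGTG and also reads the same on both strands, occurred in 5 of 32 (15.6%), against 1.12% of all genes. The 12 genes were Lamp1, Ctsa, Ctsd, Ctsf, Ctsl, Gaa, Gla, Glb1, Naglu, Sgsh, Mcoln1 and Atp6v0d1. A match is a string of letters and not a measured binding site.

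Lamp1 held 4 matches within the 100 bases before its start, and Cd68 and Hexa held none in the window. Those 100 bases are printed for the 3 genes, 5′ to 3′ on the strand of the gene, with each CACGTG in capitals. They lie at chr8:13159061-13159160 on the plus strand for Lamp1, at chr11:69666171-69666270 on the minus strand for Cd68 and at chr9:59539440-59539539 on the plus strand for Hexa.
Lamp1: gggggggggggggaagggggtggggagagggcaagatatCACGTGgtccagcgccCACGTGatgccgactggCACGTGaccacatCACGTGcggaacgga
Cd68: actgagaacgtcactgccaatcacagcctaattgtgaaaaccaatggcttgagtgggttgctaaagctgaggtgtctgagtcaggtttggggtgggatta
Hexa: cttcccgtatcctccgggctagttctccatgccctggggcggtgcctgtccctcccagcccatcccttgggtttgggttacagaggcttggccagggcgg

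Single matches of 5 further genes are shown with 12 bases on either side, since these genes differ widely in how far the lines stood apart. The Mcoln1 match begins at position -45 counted from the start site (chr8:3500462-3500491, plus strand), that of Ctsd at -98 (chr7:142387908-142387937, minus strand), Glb1 at -48 (chr9:114401018-114401047, plus strand), Naglu at -73 (chr11:101070009-101070038, plus strand) and Gla at -194 (chrX:134601182-134601211, minus strand). In Mcoln1, Ctsd and Gla the match shown is the 8-base form. Each of these genes holds another match that is not shown, at -71 in Mcoln1, -245 in Ctsd and -227 in Gla. Of those, only the Gla match is the 8-base form.
Mcoln1: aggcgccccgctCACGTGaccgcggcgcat
Ctsd: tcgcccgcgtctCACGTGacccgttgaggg
Glb1: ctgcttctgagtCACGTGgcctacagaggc
Naglu: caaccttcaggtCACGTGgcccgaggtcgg
Gla: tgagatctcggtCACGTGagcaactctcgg

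Levels of different genes were compared per transcript length, in RPKM (read counts scaled to transcript length and library size) summed over the transcripts of a gene. Ctsl, the endopeptidase cathepsin L, stood first in both lines, at 690 ± 44.5 RPKM in 4T1 and 1388 ± 272 RPKM in TS/A (SD, n = 4 libraries). In 4T1 it was followed by Lamp1 at 232 ± 13.7 RPKM, the autophagy receptor Sqstm1 at 216 ± 36.6 RPKM and Ctsz, the carboxypeptidase cathepsin Z, at 144 ± 4.21 RPKM. Lamp1 and Sqstm1 overlapped in 4T1. In TS/A the order after Ctsl was Sqstm1 at 422 ± 62.3 RPKM, Psap, the precursor of the saposins that help degrade sphingolipids, at 182 ± 35.0 RPKM, and Lamp1 at 174 ± 27.0 RPKM, and these last 2 overlapped. Cd68 ranked 26 of 37 in 4T1 with the empty vector at 5.01 RPKM, 20 of 37 in 4T1 with the Gpr56 vector at 11.9 RPKM, and 31 of 37 in TS/A at 1.89 ± 0.158 RPKM. Ctsk, the collagen-degrading cathepsin of osteoclasts, was close to the limit of counting at 0.0644 to 0.416 RPKM over the 8 libraries, from 54 reads in all.

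**Figure D1:**
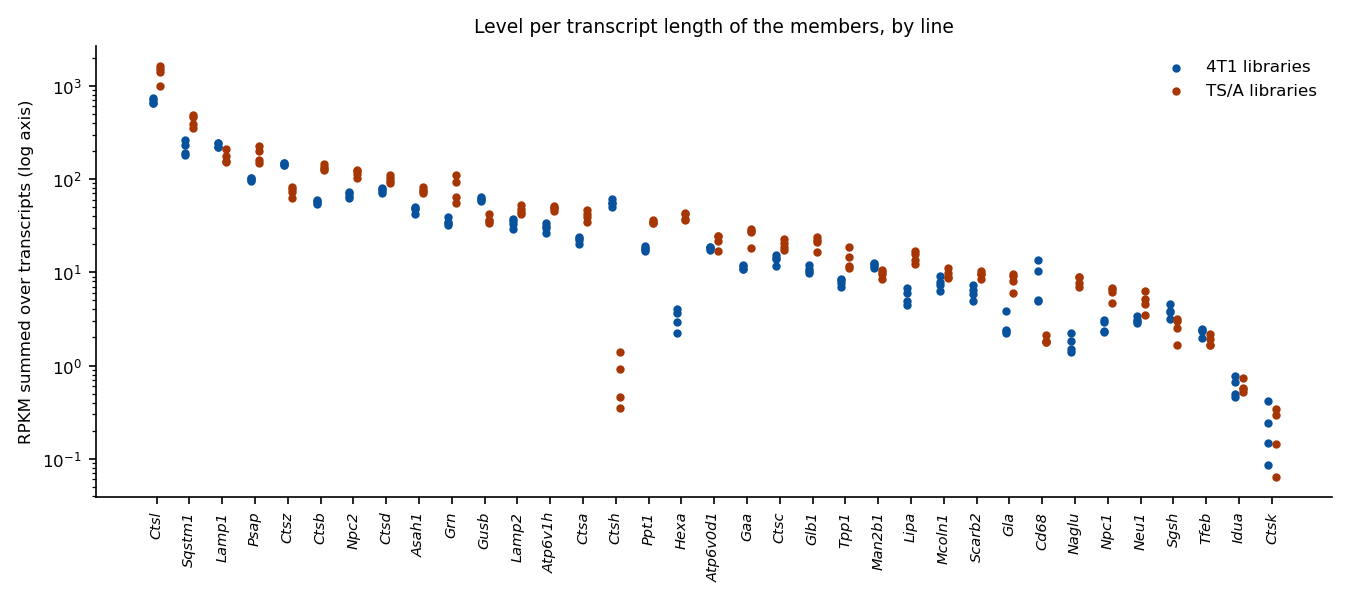
RPKM summed over the transcripts of each gene (log axis) for the members above 0.1 RPKM on average, ordered by their mean, with 1 point for each of 4 libraries of 4T1 and 4 of TS/A. Ctsl is highest in both lines, and Ctsh and Hexa show the widest gaps between the lines.

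Cd68 (ENSMUSG00000018774, chromosome 11, 69664213 to 69666153 on the minus strand of GRCm38 in GENCODE M21) stood at 6.64 and 6.58 CPM in 4T1 with the empty vector and at 13.4 and 17.3 CPM with the Gpr56 vector. The corresponding reads numbered 118 and 140 against 286 and 185. Both Gpr56 libraries lay above both empty libraries, a log2 difference of 1.21 (SE 0.20). In TS/A it stood at 2.21 and 2.48 CPM in the libraries labelled empty and at 2.63 and 2.35 CPM in those labelled Gpr56. These groups overlapped. Transcript Cd68-201 held 85.5% of the reads in TS/A Gpr56 library 1 and 100% in each other library, and no other gene of the annotation with reads overlaps Cd68. Of 4 coding genes near it on the chromosome, those on one side lay higher with the Gpr56 vector in 4T1. Sox15, a transcription factor gene, was at 1.29 and 1.22 CPM with the empty vector against 2.95 and 2.53 CPM with Gpr56 (log2 difference 1.13, SE 0.50), and Mpdu1, which acts in sugar transfer in the endoplasmic reticulum, was at 34.4 and 36.9 CPM against 44.4 and 45.2 CPM (0.33, SE 0.18). On the other side, Eif4a1, a translation initiation helicase, was at 2663 and 2719 CPM against 2593 and 2594 CPM (-0.05, SE 0.15), and Senp3, a SUMO protease, was at 203 and 191.9 CPM against 198 and 188 CPM (-0.03, SE 0.14).

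Cd68 is widely used to mark macrophages, so the other myeloid markers were read in the same libraries. Of 30 such markers, 14 had 0 reads in all 8 libraries, among them Adgre1, Tyrobp, Laptm5, C1qa, C1qb, C1qc and Cd163. Ptprc, the pan-leukocyte CD45, had 4 reads in all, Csf1r, the receptor for macrophage growth factors, had 16 and Lyz2, the macrophage lysozyme, had 19. The list summed in 4T1 to 10.6 and 9.25 CPM (empty vector) against 13.5 and 14.0 CPM (Gpr56), and to 12.2 to 18.8 CPM in TS/A, where Cd68 was lower. In 4T1 most of that sum was Cd14, a co-receptor for lipopolysaccharide that is not restricted to myeloid cells, at 8.04 and 6.95 CPM against 11.2 and 9.94 CPM. Mrc1, the mannose receptor CD206, had 703 reads, at 1.41 to 1.97 CPM in 4T1 and 5.04 to 7.57 CPM in TS/A, and Coro1a, a coronin of leukocytes, had 102 reads. Adgre1, Tyrobp, Ptprc, Csf1r and Lyz2 were thus at or near 0 in every library, whereas Cd14 and Mrc1 were not, and their part in the Cd68 level was not tested.

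Around Cd68, the other lysosomal genes showed small differences of both signs between the vectors in 4T1. Summed over the 36 members other than Cd68, libraries of the empty vector held 4384 and 4348 CPM and those of Gpr56 held 4339 and 4389 CPM, taken over the library total. These groups overlapped, but the sum joins roles, and genes within roles, that lay on opposite sides. Tfeb and Sqstm1 together held 395 and 407 CPM (empty) against 504 and 559 CPM (Gpr56). Nearly all of that was Sqstm1, and Tfeb by itself was lower with Gpr56 (5.57 and 5.54 against 4.07 and 5.34 CPM). Sums were lower with Gpr56 for membrane proteins, Cd68 included (713 and 720 against 638 and 645 CPM). They were also lower for cathepsins (2011 and 1977 against 1946.5 and 1944 CPM) and lipid handling (681 and 671 against 666 and 657 CPM). Without Ctsl, the cathepsin sum was instead higher with Gpr56 (833 and 819 against 856 and 872 CPM). Within lipid handling, Npc2 was higher with Gpr56 (230 and 224 against 246 and 248 CPM), as was Npc1. The median log2 difference of the 35 tested members was 0.04, against 0.00 over all genes tested, and the range was -0.57 to 1.21. Cd68 was the highest of the 35, with 1.60% of all 11970 tested genes above it. The next were Ctsk at 0.61, which rests on 7, 3, 5 and 7 reads in the libraries of 4T1, and Naglu, which removes N-acetylglucosamine from heparan sulfate, at 0.47.

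Among the 4 members grouped as membrane proteins, Cd68 and the other 3 stood on opposite sides in 4T1. This does not extend to lysosomal membrane proteins at large. Npc1, grouped under lipid handling, lay at 0.35. The 19 tested genes on a further list of membrane proteins and transporters ran from -0.79 to 0.40. Lamp1 was at 575 and 588 CPM with the empty vector and at 518 and 508 CPM with the Gpr56 vector (log2 difference -0.18, SE 0.13). Lamp2 was at 103.5 and 99.5 CPM against 76.8 and 81.2 CPM (-0.36, SE 0.12). Scarb2, the LIMP-2 protein that carries glucocerebrosidase to the lysosome, was at 32.5 and 36.8 CPM against 24.2 and 28.97 CPM (-0.39, SE 0.14). In all 3 both Gpr56 libraries lay below both empty libraries, the reverse of Cd68. Groups that do not overlap, in either direction, were found for 59.9% of all tested genes in this comparison.

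**Figure D2:**
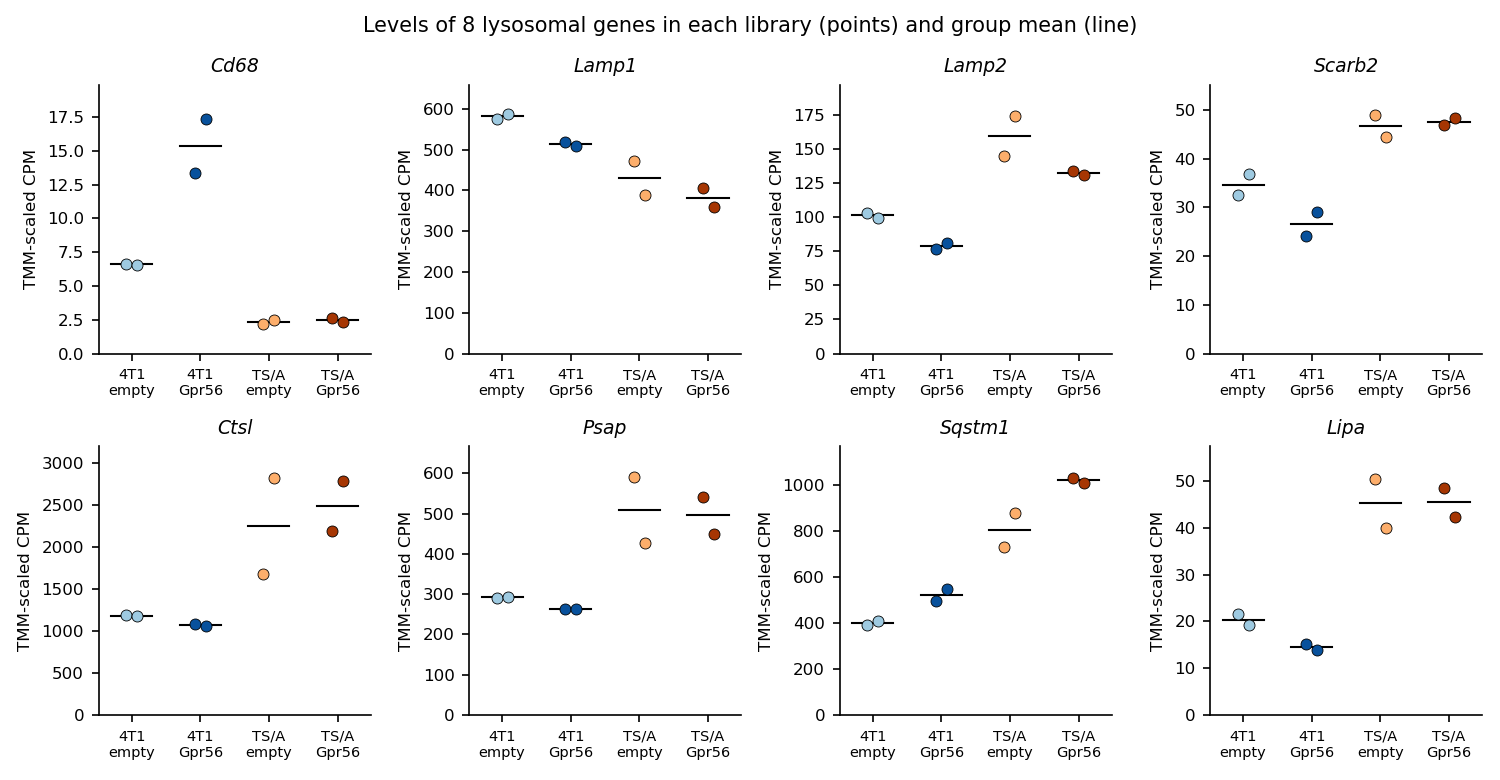
TMM-scaled CPM of 8 lysosomal genes in each library (points) with the mean of each group of 2 (line). Cd68 is higher with the Gpr56 vector in 4T1 (13.4 and 17.3 against 6.64 and 6.58 CPM), where Lamp1, Lamp2, Scarb2, Ctsl, Psap and Lipa are lower, and the Sqstm1 points labelled Gpr56 lie above those labelled empty in both lines.

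Soluble enzymes lay on both sides of 0 in 4T1. Ctsl was at 1186 and 1177 CPM with the empty vector and at 1082 and 1057 CPM with the Gpr56 vector (log2 difference -0.14, SE 0.23), and the other 7 tested cathepsins ranged from -0.12 to 0.61. Gusb, the beta-glucuronidase, was at 180.2 and 164.7 CPM against 167.5 and 163.0 CPM (-0.06, SE 0.11), and those groups overlapped. Hexa, the alpha subunit of beta-hexosaminidase, had the lowest value of the 35 members, at 7.71 and 8.60 CPM against 6.09 and 4.69 CPM (-0.57, SE 0.16), from 130 and 50 reads with the Gpr56 vector.

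Genes of lipid handling were split. Psap was at 291 and 294 CPM with the empty vector and at 264 CPM in both libraries with the Gpr56 vector (log2 difference -0.15, SE 0.17). Lipa, the lysosomal acid lipase, was at 21.6 and 19.1 CPM against 15.3 and 13.9 CPM (-0.48, SE 0.16). Npc1, the membrane protein that exports cholesterol from the lysosome, lay the other way at 13.0 and 12.8 CPM against 16.0 and 16.9 CPM (0.35, SE 0.16).

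The remaining roles also held differences of both signs in 4T1. Grn, the progranulin precursor, was at 78.5 and 81.2 CPM with the empty vector and at 79.4 and 87.8 CPM with the Gpr56 vector, and Atp6v1h, a subunit of the proton pump, was at 52.9 and 63.6 CPM against 66.9 and 58.2 CPM. Both overlapped. Ppt1, a thioesterase, was at 46.4 and 48.3 CPM against 41.8 and 43.4 CPM. Sqstm1, the p62 receptor that links ubiquitin-tagged cargo to autophagy, was at 393 and 408 CPM against 496 and 546 CPM (log2 difference 0.38, SE 0.13). Tfeb, the regulator of lysosomal genes, was at 5.57 and 5.54 CPM against 4.07 and 5.34 CPM. In these last 3 genes the libraries of the vectors did not overlap, as was so for 59.9% of all tested genes.

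Counts past the threshold in 4T1 depended on which libraries set the spread. With all 8 libraries in 1 edgeR quasi-likelihood fit, 0 of 35 members passed an adjusted p of 0.05, where 0.226% of all genes did. At an unadjusted p under 0.05 there were 7 of 35, against 11.4% of all genes. The DESeq2 Wald test called 1 (Cd68), against 2.26%, and limma-voom called 0, against 0.476%. With the 4 libraries of 4T1 alone, 2 of 34 members were called higher (Cd68 and Sqstm1), where 11.5% of all genes were, and 7 were called lower (Lamp1, Lamp2, Scarb2, Ctsl, Hexa, Asah1 and Lipa), where 11.3% were. The 2 groups of libraries did not overlap for 22 of 35 members, 10 higher and 12 lower, or 62.9%, against 59.9% of all tested genes. Since 4T1 values chose the list, these counts are a description. Several of the genes named in this paragraph were taken after their values were seen. Epithelial markers moved in the same libraries, with sums of 2164 and 2132 CPM (empty vector) against 3070.25 and 2985 CPM (Gpr56); their part in the differences was not tested.

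In the libraries of TS/A labelled by vector, no member passed the threshold. With all 8 libraries in the fit, 0 of 35 members were called by edgeR's quasi-likelihood test, where 0.00835% of all genes were. An unadjusted p under 0.05 was found for 2 members, against 3.48% of all genes, and DESeq2 and limma-voom each called 0, against 0.0835% and 0.00835%. The log2 difference of Cd68 was 0.09 (SE 0.23, adjusted p = 1), and over 21 alternative settings it ran from 0.01 to 0.19. Groups did not overlap for 5 members (14.3%, against 21.6% of all genes). Of these 4 were higher in the libraries labelled Gpr56, namely Glb1, Hexa, Neu1 and Sqstm1, and Lamp2 was lower. The 2 with an unadjusted p under 0.05 were Neu1, a sialidase, at 0.51 (SE 0.22), and Sqstm1 at 0.35 (SE 0.13).

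The member of each role with the highest mean RPKM over the 8 libraries shows how the TS/A libraries were spread. Ctsl was at 1680.01 and 2826 CPM in the libraries labelled empty and at 2189 and 2793 CPM in those labelled Gpr56, so the empty libraries held both extremes. Grn was likewise at 252 and 139.8 CPM against 219 and 156 CPM, and Psap at 591 and 428 CPM against 542 and 450.4 CPM. Lamp1 stood at 473 and 389 CPM against 405 and 359 CPM, Gusb at 110.3 and 96.3 CPM against 99.0 and 99.3 CPM, and Atp6v1h at 86.6 and 108 CPM against 97.7 and 101.4 CPM. Only Sqstm1 among these 7 had groups that did not overlap, at 728 and 878 CPM against 1031 and 1010.03 CPM.

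**Figure D3:**
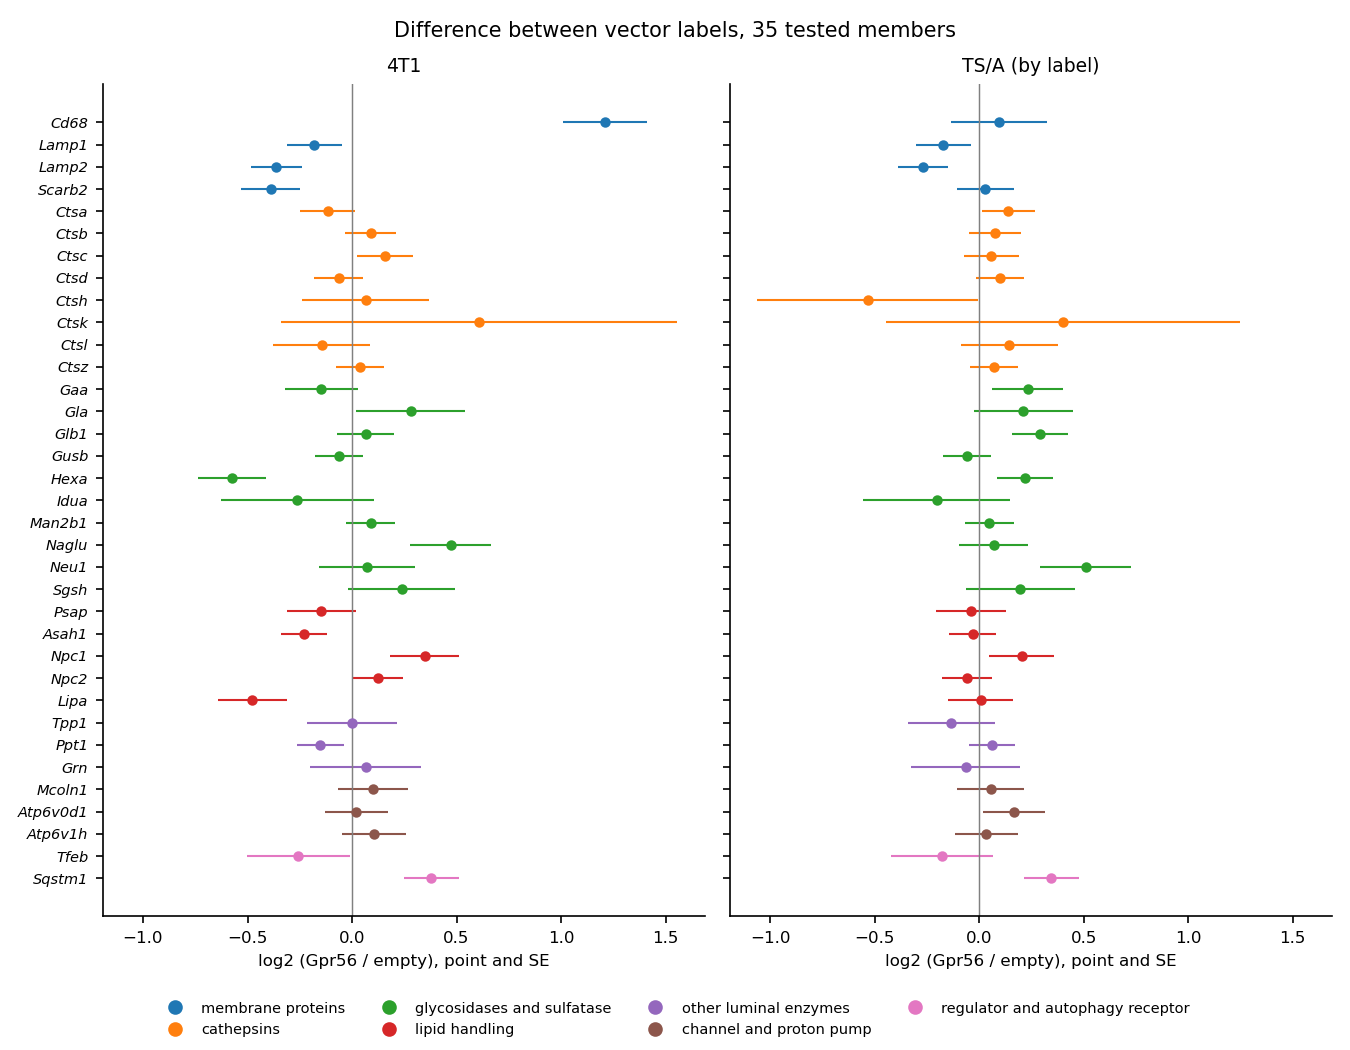
Log2 difference between the Gpr56 and empty vector labels (point) with its SE (bar) for 35 tested members, in 4T1 at left and in TS/A, by label, at right, coloured by role. Cd68 stands apart at 1.21 in 4T1 and lies at 0.09 in TS/A, and most other members lie within 0.5 of 0.

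Leaving out either TS/A library with the empty vector changed which members passed in TS/A, each time with that group resting on 1 library that is assumed to vary like the others. Without empty library 1, 2 members passed by edgeR's quasi-likelihood test, where 1.84% of all genes did. These were Gaa, the acid alpha-glucosidase, at a log2 difference of 0.54 (SE 0.09, adjusted p = 0.0224), and Lamp2 at -0.39 (SE 0.08, adjusted p = 0.04). Without empty library 2, 5 passed, where 23.9% of all genes did, namely Ctsl, Gla, Neu1 and Sqstm1 higher and Lamp1 lower. The 2 sets shared no gene, and both were named after their values were seen. Cd68 was called in neither.

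The difference between the 2 vector effects, taken as TS/A minus 4T1, uses the 4T1 values that prompted the list and is therefore a description too. It was past the threshold for 0 of 35 members by edgeR's quasi-likelihood test, where 0.0668% of all genes were. An unadjusted p under 0.05 was found for 2 members (Cd68 and Hexa), against 6.4% of all genes, and DESeq2 and limma-voom each called 0, against 0.551% and 0%. For Cd68 the difference was -1.12 (SE 0.31) and for Hexa 0.79 (SE 0.21), both on the log2 scale. Without TS/A empty library 1, 1 member passed (Gaa), where 2.54% of all genes did, and without empty library 2, 2 passed (Ctsl and Hexa), where 19.5% did.

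Between the lines, most lysosomal genes stood at different levels, and more of them were higher in TS/A. With 4 libraries of each line and the vectors averaged, edgeR's quasi-likelihood test called 24 of 35 members higher in TS/A, where 32.8% of all tested genes were, and 7 lower, where 32.4% were. Those are 68.6% and 20.0% of the 35. DESeq2 called 24 and 7, against 32.9% and 32.5% of all genes, and limma-voom 24 and 7, against 32.1% and 32.8%. An unadjusted p under 0.05 was found for 32 members, against 68.8% of all genes. For the members, the median log2 difference was 0.70, against 0.01 over all genes. The 35 are those that passed the filter, and Ctsk, Idua, Atp6v0d1 and Tfeb missed the threshold. Summed over all members, the level was 4352 to 4407 CPM in 4T1 and 6746 to 7348 CPM in TS/A. The epithelial markers given above differed between the same lines, and their part in these differences was not tested.

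Cd68 was lower in TS/A than in 4T1, at 2.21 to 2.63 CPM against 6.58 to 17.3 CPM over 4 libraries each (log2 difference -2.05, SE 0.15, adjusted p = 1.11e-05 by edgeR). With the empty vector alone, the difference was -1.50 (adjusted p = 9.62e-04 by edgeR). The first comparison includes the 4T1 Gpr56 libraries (13.4 and 17.3 CPM), whose Cd68 level prompted the list. The second leaves out the Gpr56 libraries but keeps the 4T1 empty libraries, against which Cd68 was noted. Neither p-value is therefore independent of that choice, and both stand as a description. The other membrane proteins were split. Lamp1 was lower in TS/A (-0.43, SE 0.09, adjusted p = 0.00383), and Lamp2 (0.70, SE 0.09) and Scarb2 (0.64, SE 0.10) were higher, all 3 past the threshold.

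Of the 8 tested cathepsins 5 were higher in TS/A (62.5%, against 32.8% of all genes). Another 2 were lower (25%, against 32.4%) and Ctsk did not pass. Ctsh, the aminopeptidase cathepsin H, showed the largest difference of any member. It was at 85.3, 79.2, 88.4 and 83.5 CPM in 4T1 and at 1.93, 0.646, 1.33 and 0.461 CPM in TS/A, 74.9-fold lower (log2 difference -6.23, SE 0.30, adjusted p = 8.96e-07 by edgeR). Ctsz was also lower in TS/A (-0.97, SE 0.08, adjusted p = 2.2e-05). Ctsb, the cysteine protease cathepsin B, was at 273, 280.1, 291 and 298 CPM in 4T1 and at 598, 702, 716 and 653 CPM in TS/A, 2.34-fold higher (1.22, SE 0.09, adjusted p = 8.82e-06). Ctsl was higher by 1.08 (SE 0.17), and Ctsa, the protective protein of beta-galactosidase, Ctsc, the activator of granule serine proteases, and Ctsd, the main aspartic protease, were higher by 0.38 to 0.73.

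The glycosidases held the largest increases. Hexa was at 7.71, 8.60, 6.09 and 4.69 CPM in 4T1 and at 74.0, 80.3, 89.2 and 90.2 CPM in TS/A, 12.4-fold higher (log2 difference 3.64, SE 0.11, adjusted p = 8e-08 by edgeR). Naglu was at 4.16, 3.81, 6.04 and 4.88 CPM against 22.7, 19.8, 23.8 and 20.8 CPM, 4.64-fold higher (2.21, SE 0.13, adjusted p = 2.76e-06). Gla, the alpha-galactosidase that is deficient in Fabry disease, was at 7.54, 7.99, 8.05 and 11.1 CPM against 19.0, 30.3, 26.2 and 30.7 CPM, 3.09-fold higher (1.63, SE 0.18, adjusted p = 9.67e-05). In all 3 no library of one line reached the other. Gaa, Glb1, the beta-galactosidase, and Neu1 were higher as well, by 0.62 to 1.15. Gusb (-0.74), Sgsh, a heparan sulfatase (-0.59), and Man2b1, the acid alpha-mannosidase (-0.31), were lower past the threshold, and Idua, the alpha-iduronidase, stood at a difference of -0.01 (adjusted p = 0.976).

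All 5 genes of lipid handling were higher in TS/A, where 32.8% of all genes were. Lipa was at 21.6, 19.1, 15.3 and 13.9 CPM in 4T1 and at 50.4, 40.01, 48.6 and 42.3 CPM in TS/A, 2.63-fold higher (log2 difference 1.39, SE 0.11, adjusted p = 1.81e-05 by edgeR). Npc1 followed at 1.18, Psap at 0.86, the cholesterol-binding Npc2 at 0.77 and the acid ceramidase Asah1 at 0.65. The 3 other luminal proteins were higher too. Grn was at 78.5, 81.2, 79.4 and 87.8 CPM against 252, 139.8, 219 and 156 CPM, 2.35-fold higher (1.23, SE 0.19, adjusted p = 6.14e-04), and its 4 TS/A libraries were more spread than those of 4T1. Ppt1 (0.95) and the tripeptidyl peptidase Tpp1 (0.74) complete the role.

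Of the channel and pump genes 2 of 3 were higher, and of the pair Tfeb and Sqstm1 only Sqstm1 was. Over all genes 32.8% were higher, so counts this small say little. Atp6v1h was higher in TS/A by 0.70 (SE 0.11) and Mcoln1, the calcium channel TRPML1, by 0.32 (SE 0.12, adjusted p = 0.037 by edgeR). Atp6v0d1, a membrane-sector subunit of the pump, stood at 0.24 (SE 0.11, adjusted p = 0.0719). Sqstm1 was higher by 0.99 (SE 0.09). Tfeb stood at -0.37 (SE 0.17, adjusted p = 0.0909), at 4.07 to 5.57 CPM in 4T1 and 3.35 to 4.63 CPM in TS/A. Of the 31 members called between the lines, 26 were called in the same direction in each of 17 alternative settings, and Ctsd, Man2b1, Mcoln1, Neu1 and Sgsh lost their call in at least 1.

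**Figure D4:**
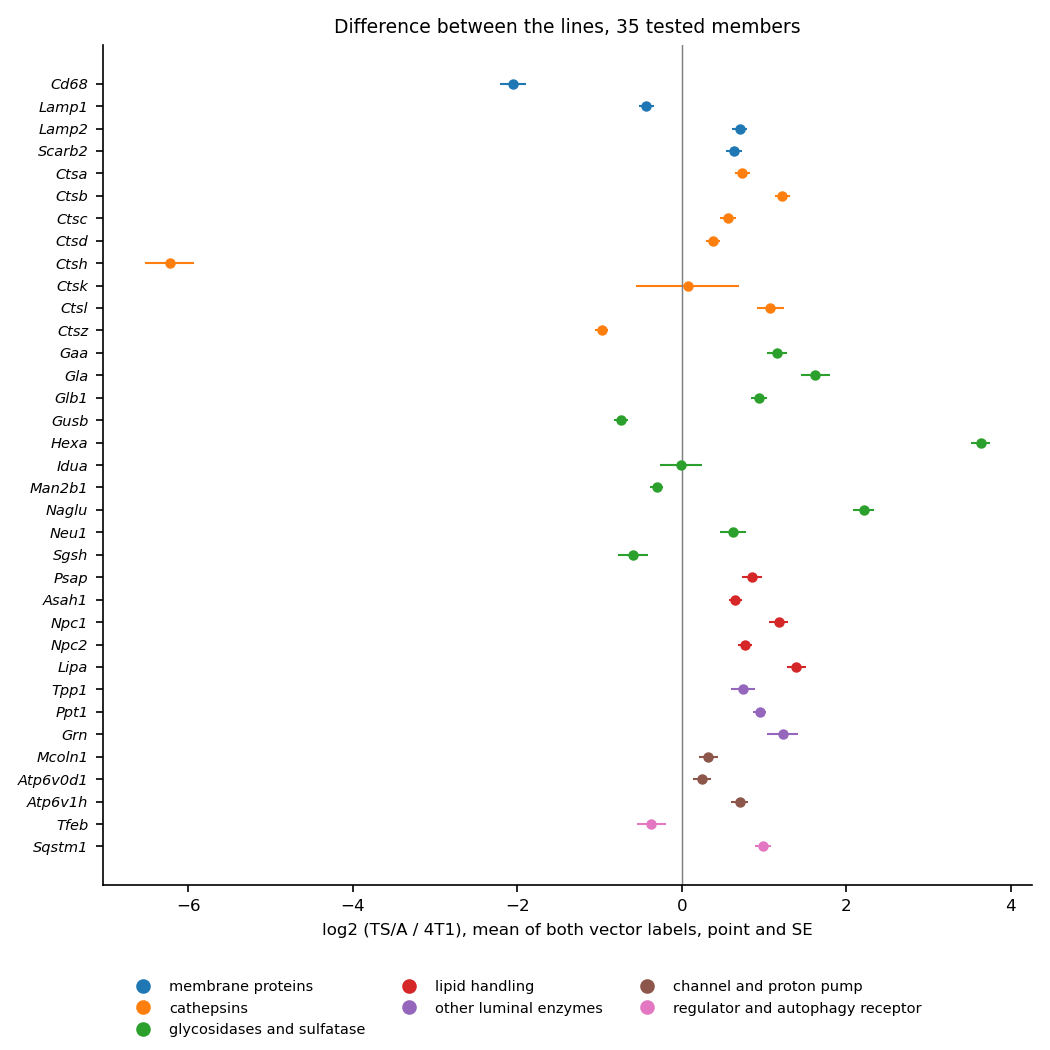
Log2 difference between TS/A and 4T1 (point, mean of both vector labels, 4 libraries a line) with its SE (bar) for 35 tested members, coloured by role. Points right of 0 are higher in TS/A, with Hexa at 3.64 the highest and Ctsh at -6.23 the lowest.

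The CACGTG letters printed above can be set beside the difference between the lines. Of 11 tested members with a match, 8 were called higher in TS/A and 2 lower, with a median log2 difference of 0.73. Of 19 tested members whose window held no match, 12 were called higher and 4 lower, with a median of 0.64. Over all genes 32.8% were called higher and 32.4% lower. Lamp1, with 4 matches, stood at -0.43, and Hexa and Cd68, with none, stood at 3.64 and -2.05.

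The rest of the lysosomal system was read from 7 lists of 133 further genes. In the fit of all 8 libraries, 0 of the 123 that were tested passed between vectors in 4T1 and 0 in TS/A by edgeR's quasi-likelihood test (10 and 1 at an unadjusted p under 0.05, against 11.4% and 3.48% of all genes); DESeq2 called 1 and 0 of them and limma-voom 0 and 0. Between the lines, 67 were higher (54.5%, against 32.8% of all genes) and 25 lower (20.3%, against 32.4%) in TS/A. Of 31 other hydrolases and cofactors, 17 were higher and 6 lower. Ctso, cathepsin O, was higher by 3.38 (SE 0.18, adjusted p = 1.41e-06), whereas Acp5, the tartrate-resistant phosphatase (-1.55), and Siae, a sialate esterase (-1.42), were lower. Of 16 other pump subunits 9 were higher and 4 lower, with Atp6v0e2 at 3.05 and Atp6v1c2 at -7.38 (5.68 ± 0.420 CPM in 4T1 and 0.0820 ± 0.164 CPM in TS/A; SD, n = 4). Atp6v1c2 was close to the limit of counting in TS/A, so the size of its difference is poorly set. Of 19 other membrane proteins and transporters 9 were higher and 4 lower, with Mfsd8 at 1.66 and Laptm4b at -1.51.

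Of 16 genes of enzyme sorting, 6 were higher and 6 lower in TS/A (37.5% each way, near the shares over all genes). Those shares, 32.8% higher and 32.4% lower, also stand beside the counts of the lists that follow. Gnptab and Gnptg, which encode subunits of the enzyme that tags hydrolases with mannose 6-phosphate, lay on opposite sides at -1.17 (SE 0.09) and 0.98 (SE 0.15). Of 20 autophagy genes 15 were higher and 0 lower, with Map1lc3a, which encodes an LC3 protein, at 1.48 (SE 0.18) and the autophagy receptor gene Calcoco1 at 1.41 (SE 0.11), and Sqstm1, the receptor among the members, was higher in the same libraries. The autophagy list had 16 genes at an unadjusted p under 0.05 in this comparison, against 68.8% of all genes, and DESeq2 and limma-voom each called 15 higher and 1 lower. Among 15 genes of nutrient sensing 7 were higher and 4 lower, with Lamtor1, an anchor of the Ragulator complex on the lysosome, at 1.09 and Mtor at -0.62. Of 6 cathepsin inhibitors 4 were higher and 1 lower. Cstb, which encodes the cytosolic inhibitor stefin B, was higher by 1.12 (SE 0.11), and Cst6, which encodes a secreted cystatin, was lower by a log2 difference of -1.27 (SE 0.21).

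Lamp2 is spliced into forms that share their luminal part and differ in the membrane anchor and tail, and the deposited files count transcripts. Transcript Lamp2-202 held 63.3%, 62.7%, 57.2% and 50.6% of Lamp2 reads in 4T1, the last 2 with the Gpr56 vector, and 80.4%, 80.9%, 78.3% and 77.1% in TS/A. Lamp2-201 held 35.8%, 36.8%, 42.1% and 48.7% in 4T1 and 18.9%, 18.5%, 21.3% and 22.8% in TS/A. No library of one line reached the other, and within each line both Gpr56-labelled libraries lay below both empty libraries for Lamp2-202. The lowest share, 50.6%, is of 4T1 Gpr56 library 2, which had the fewest reads. For Psap that library held 59.9% on the main transcript, against 79.8% to 90.7% in the other 4T1 libraries. For Ctsl these were 76.9% against 87.2% to 89.7%, whereas Ctsa was not lowest there (85.4%, others 81.2% to 90.6%). The part of that library in the Lamp2 shares was not tested. Lamp2 was taken after its values were seen. The sources used here do not say how reads that transcripts share were assigned, so the shares are a description with no test.

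**Figure D5:**
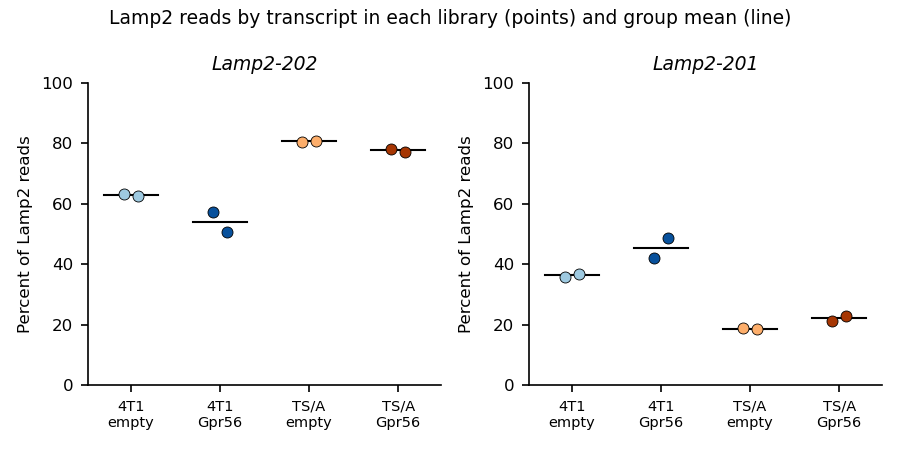
Percent of Lamp2 reads on transcript Lamp2-202 (left) and Lamp2-201 (right) in each library (points), with the mean of each group of 2 (line). Lamp2-202 is at 50.6% to 63.3% in 4T1 and 77.1% to 80.9% in TS/A.

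Some members share their locus with another gene, and the library kit does not record strand. Glb1 overlaps Tmppe over 6172 bases on the same strand and Idua overlaps Dgkq over 9342 bases on the opposite one, with 337 Idua reads against 1989 of Dgkq over the 8 libraries. Npc1 overlaps Rmc1 (4054 against 5550 reads), Ctsb overlaps Fdft1 (80779 against 24294 reads) and Ppt1 overlaps Cap1 (11079 against 56430 reads) at their ends. Reads from the overlapping stretches of these genes could not be told apart.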

How the data were processed

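Bulk RNA was sequenced from 8 libraries in 4 groups of 2. Per the labels' protocols, extraction used the RNeasy Mini Kit and library construction used TruSeq RNA Library Preparation Kit v2, a kit that does not record strand. Each deposited file lists 65042 transcripts with whole-number read counts and RPKM values, per the file headers. The aligner, counter, build and annotation were not given in the sources used here.

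Deposited counts were summed by gene name (22026 genes, 15815 with a read). Positions and overlaps come from GENCODE M21, and promoter sequences from RefSeq. Tests used edgeR 4.0.16 in R 4.3.3 (filterByExpr, TMM, then glmQLFit and glmQLFTest on the 8 libraries together). P-values were adjusted over 11970 genes by Benjamini-Hochberg, the threshold was 0.05, and no fold limit was set. A standard error is the fitted log2 difference over the root of its F statistic. Single-gene CPM values carry TMM scaling; sums over lists do not. The deposited RPKM were summed over transcripts only to compare genes with each other. Alternatives were DESeq2 1.42.0, limma-voom (limma 3.58.1), other scalings and filters, a replicate block and leaving out each library. The pipeline was tested on simulated data.

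Groups follow the sample characteristics. The members and lists were chosen with earlier results of these data known. The rule for named genes took, per comparison, up to 8 members past the threshold with the largest absolute log2 fold change or, where fewer than 4 passed, Cd68 and the member of each role with the highest RPKM, and from other lists up to 2 genes each way past the threshold, of which 1 is not reported here. Other members given with values, such as Lamp2, Scarb2 and Npc1 in 4T1, fall outside it and were picked with their values known. No label says whether the libraries of a group were separate cultures. The p-values thus measure only the spread between the samples, and it may be technical. Limits from 3 reads cover counting error only.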

Additional observations from a re-analysis of the deposited data

How the results depend on the processing

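Depth limits the genes of few reads, such as Ctsk (54 reads over the 8 libraries), Idua (337), Tfeb (719) and Cd68 (949). Between the lines, the 31 members past the threshold became 26 to 32 over 17 alternatives (28 to 32 when leaving out 1 library), and 0 of the 31 reversed. In 4T1 the count of 0 members became 1 by DESeq2's Wald test, 1 with no filter on low counts, and 9 with 4T1 alone. Leaving out 1 library gave 0 to 6, the 6 being reached when either TS/A library of the empty vector was absent. With 4T1 alone, leaving out each of its libraries gave 4, 4, 8 and 7; these fits of 1 line with a library left out were added after seeing the data. Cd68 was among the genes called in each of these settings except those giving 0. Its values in 4T1 prompted the list, so these calls are a description and no separate support. In TS/A the count of 0 became 2 without empty library 1 and 5 without empty library 2 (0 to 5 when leaving out 1 library), and with TS/A alone it was 0 to 4. The difference between the vector effects had 0 members, 1 without TS/A empty library 1 and 2 without empty library 2. The cause of these shifts was not tested. Libraries of the same number share only that number: their deviations correlated at -0.02 in 4T1 and 0.31 in TS/A over 11970 genes. With a replicate block the counts of members were 1 in 4T1, 0 in TS/A, 32 between the lines and 0 for the difference.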
